A study of Mus musculus with 4 samples.

Results

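Voltage-gated sodium channels open when a neuron is depolarized and carry the inward current that drives the upstroke of the action potential. Each channel has 1 large pore-forming alpha subunit and smaller auxiliary beta subunits, which alter gating and bring the channel to the membrane. The genes covered here are Scn1a, Scn2a, Scn3a, Scn7a, Scn8a and Scn9a for alpha subunits, and Scn2b, Scn3b and Scn4b for beta subunits. Of these, Scn7a encodes an atypical member of the family. In cortical neurons the channels are concentrated at the axon initial segment, where spikes begin. The 9 genes were found by matching the Ensembl identifiers of the count files to these symbols in the mm10 annotation of GENCODE, and they are 9 of the 55421 genes listed.

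Their transcription levels were compared in 4 RNA-seq libraries of dissociated prefrontal cortex (PFC) cells from wild-type C57BL/6 mice at postnatal day 0, cultured for 10 days in B27-supplemented neurobasal medium. The medium of 2 libraries held FGF2, a growth factor for neural progenitors and glia, at 5 ng/mL, and that of the other 2 libraries held none. The libraries are numbered 1 and 2 within each group, after titles that read B1 and B2 without explaining the letter. Nothing in the sources says that they came from separate cultures. The study describes biological replicates for some human cultures and technical replicates for its other samples, and does not name the mouse libraries there. The p-values thus set the group difference against variation that may be only technical, and they may not extend to new cultures. Gene counts totalled 9166432 to 10799886 per library. In CPM, the unit used below, counts are scaled to a common library total, and 3 counts amounted to 0.276 to 0.330 CPM. At that depth neuronal, astrocyte and oligodendrocyte lineage markers were all detected, whereas the endothelial marker Cldn5 and the peripheral glial marker Foxd3 were at 0 in every library.

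With FGF2, 6 of the 9 sodium channel genes were lower and none was higher. They were the pore subunits Scn2a, Scn3a and Scn8a and the auxiliary subunits Scn2b, Scn3b and Scn4b. Scn1a and Scn9a did not pass the threshold (adjusted p of 0.05, edgeR quasi-likelihood test), and Scn7a had too few counts to be tested. Of all 17144 genes tested, 19.9% were lower with FGF2, 20.7% were higher and 40.5% passed in either direction. The median log2 fold change was -0.42 over the 8 sodium channel genes tested and about 0 (-0.0008) over all genes tested. In these bulk libraries, fewer neurons and less channel RNA per neuron cannot be told apart.

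**Figure D1:**
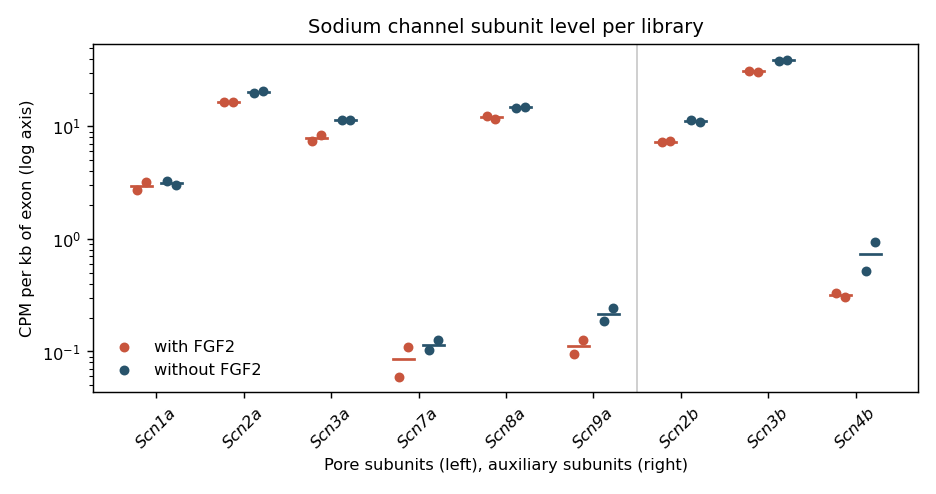
Level of the 9 sodium channel genes in each of the 4 libraries, in CPM per kilobase of exon on a log axis, with 1 point per library and a bar at the mean of each group. The 2 FGF2 libraries lie below both libraries without FGF2 for 7 of the 9 genes, whereas the groups overlap for Scn1a and Scn7a.

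Scn2a, on the plus strand of mouse chromosome 2 (chr2:65620771-65767447, mm10), is the main pore subunit of young excitatory axons. It was counted 1890 and 2078 times with FGF2 and 2648 and 2860 times without, or 207.7 and 210.7 CPM against 251.4 and 263.5 CPM. Both FGF2 libraries lay below both libraries without FGF2. The level with FGF2 was 81.3% of that without, a log2 fold change of -0.30 (SE 0.05, 95% interval -0.39 to -0.21, adjusted p = 1.5e-09).

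Scn8a (chr15:100869858-101045938, plus strand) encodes the subunit that comes to dominate the mature initial segment and the nodes of Ranvier, and it is the only pore subunit of the 6 that lies outside chromosome 2. It was at 195.3 and 183.5 CPM with FGF2 and at 231.6 and 237.0 CPM without. The groups did not overlap, and the log2 fold change was -0.31 (SE 0.05, 95% interval -0.40 to -0.21, adjusted p = 1.8e-09). Scn8a and Scn2a fell by nearly the same proportion, to 80.8% and 81.3% of their levels without FGF2.

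Scn3a (chr2:65457118-65567627, minus strand) is a pore subunit expressed mainly in the embryonic and newborn brain. Its levels were 93.1 and 104.5 CPM with FGF2 and 143.3 and 140.8 CPM without, again with no overlap. It fell to 69.6% of its level without FGF2, with a log2 fold change of -0.52 (SE 0.06, 95% interval -0.64 to -0.40, adjusted p = 3.5e-16). This is the lowest adjusted p of the 8 genes tested.

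Scn1a (chr2:66270778-66440840, minus strand) encodes the pore subunit best known from fast-spiking interneurons. Its levels were 30.4 and 35.6 CPM with FGF2 and 36.4 and 33.6 CPM without, so that the groups overlapped. The log2 fold change was -0.08 (SE 0.11, 95% interval -0.29 to 0.13, adjusted p = 0.59). The interval includes no difference and a decrease close to that of Scn2a.

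Scn9a and Scn7a were at the lower end of detection. Scn9a (chr2:66480080-66634962, minus strand), a pore subunit known chiefly from pain-sensing neurons, had 11 and 16 counts in the FGF2 libraries and 25 and 34 in those without FGF2. These did not overlap, but the log2 fold change of -0.95 had a wide error (SE 0.44, 95% interval -1.81 to -0.09) and did not pass the adjustment over all genes (adjusted p = 0.071). Where genes were required to have at least 10 counts in every library, the adjusted p of Scn9a was 0.034. Scn7a (chr2:66673425-66784914, minus strand), an atypical sodium channel, had 4 and 8 counts in the FGF2 libraries and 8 and 10 in those without FGF2, and no difference was detectable at this depth.

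Of the 6 pore subunit genes, 5 lie together on chromosome 2, and most resemble each other in sequence, which matters for counting because reads that map equally well to several genes are dropped. The longest identical run of bases in their longest transcripts was 188 bases, shared by Scn1a and Scn2a, while Scn3a and Scn9a shared a run of 184 bases. Of all 100-base windows in a transcript, 1.22% of Scn1a, 1.53% of Scn2a, 2.95% of Scn3a and 1.96% of Scn9a were found unchanged in another of the 6 genes, and none of Scn7a or Scn8a was.

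The reads were sequenced to 150 bases from each end, so a pair can be placed by bases outside such a stretch. Scn1a, Scn2a, Scn3a and Scn9a also share a stretch of 181 bases, at an identity of at least 97.8%, with Gm13629, which overlaps Scn9a on the opposite strand. Gm13629 itself had 3 and 2 counts in the FGF2 libraries and 5 and 4 in those without FGF2. In all, 7 genes overlap 5 of the 9 sodium channel genes, and none had more than 15 counts in any library. Read pairs ambiguous between genes were left out of the counts, so these numbers do not show how many reads the overlaps cost.

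The auxiliary subunits were each lower with FGF2. Scn3b (chr9:40269217-40291618, plus strand), the most abundant of them, was at 169.3 and 167.9 CPM with FGF2 and at 208.2 and 213.4 CPM without. The groups did not overlap, and the log2 fold change was -0.32 (SE 0.05, 95% interval -0.42 to -0.22, adjusted p = 1.6e-09). The size of this decrease was close to those of Scn2a and Scn8a.

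Scn2b (chr9:45117782-45130070, plus strand) encodes a beta subunit that is joined to the pore by a disulfide bond. It was at 33.5 and 34.8 CPM with FGF2 and at 52.9 and 51.1 CPM without. Here too the groups were apart, with a log2 fold change of -0.61 (SE 0.10, 95% interval -0.79 to -0.42, adjusted p = 2.8e-09) and a level 65.7% of that without FGF2.

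Scn4b (chr9:45138395-45154152, plus strand), its neighbour on chromosome 9 and also a disulfide-linked subunit, is known for its part in resurgent sodium current. It had only 15 and 15 counts in the FGF2 libraries and 27 and 51 in those without FGF2. The groups did not overlap, but those without FGF2 differed nearly as much from each other as from the FGF2 libraries. The log2 fold change was -1.19 (SE 0.40, 95% interval -1.97 to -0.42, adjusted p = 0.0085). The call rested on library 2 without FGF2, for without it the log2 fold change was -0.69 with an adjusted p of 0.39, and DESeq2 gave an adjusted p of 0.16.

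**Figure D2:**
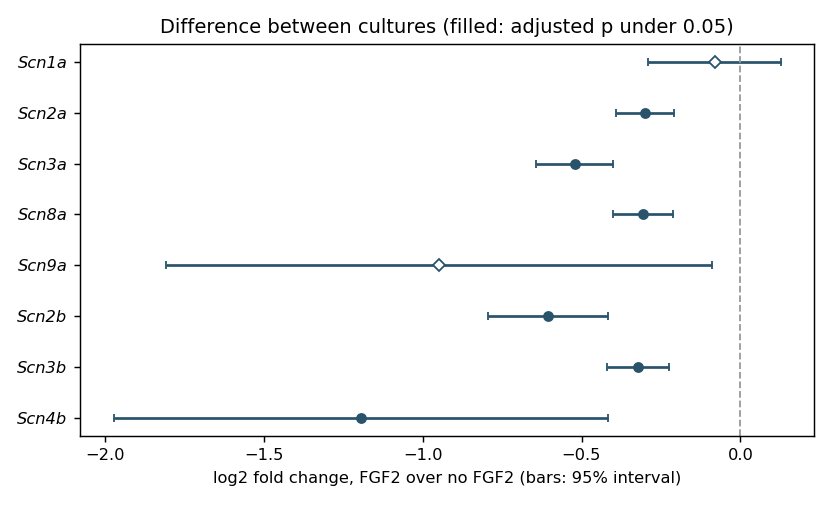
Log2 fold change (FGF2 over no FGF2) of the 8 sodium channel genes that could be tested, with 95% intervals from edgeR, filled where the adjusted p was under 0.05. All 8 estimates lie below 0, from -0.08 for Scn1a to -1.19 for Scn4b, and the widest intervals belong to Scn9a and Scn4b.

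Across the 9 genes, 7 had both FGF2 libraries below both libraries without FGF2, against 33.4% of all genes tested. DESeq2, which also gave Scn7a an adjusted p (0.87), called 5 of the 9 lower, against 10.8% of its genes. The sizes of the decreases fell into 2 ranges among the genes with more than 30 CPM. Scn2a, Scn8a and Scn3b had log2 fold changes of -0.30, -0.31 and -0.32 with overlapping intervals, whereas Scn3a and Scn2b had -0.52 and -0.61. Scn1a, at -0.08, was in neither range. The interval of Scn3a (-0.64 to -0.40) overlaps the end of that of Scn3b, so these ranges are a description.

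The bases upstream of the first RefSeq starts are shown for the 2 most abundant pore subunits, Scn2a and Scn8a, and for the auxiliary Scn2b. They are windows on GRCm38.p6 that cover the 250 bases before a RefSeq start, with CG pairs in capitals. Such windows were found for 7 of the 9 genes. RefSeq and GENCODE starts differ: the Scn8a window lies inside the GENCODE gene given above, and the Scn2b window runs past its GENCODE start. These windows are therefore not wholly upstream of the GENCODE genes.
Scn2a chr2:65620519-65620768: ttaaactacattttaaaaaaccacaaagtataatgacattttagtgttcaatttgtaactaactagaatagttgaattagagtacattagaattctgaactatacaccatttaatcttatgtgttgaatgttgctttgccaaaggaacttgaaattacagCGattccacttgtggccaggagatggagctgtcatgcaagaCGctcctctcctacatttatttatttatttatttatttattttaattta
Scn8a chr15:100870395-100870644: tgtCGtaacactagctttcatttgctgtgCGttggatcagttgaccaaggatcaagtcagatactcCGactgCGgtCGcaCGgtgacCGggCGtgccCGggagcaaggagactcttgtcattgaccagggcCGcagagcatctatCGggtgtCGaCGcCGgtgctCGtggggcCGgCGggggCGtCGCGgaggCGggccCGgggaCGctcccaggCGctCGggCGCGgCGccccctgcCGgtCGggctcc
Scn2b chr9:45117626-45117875: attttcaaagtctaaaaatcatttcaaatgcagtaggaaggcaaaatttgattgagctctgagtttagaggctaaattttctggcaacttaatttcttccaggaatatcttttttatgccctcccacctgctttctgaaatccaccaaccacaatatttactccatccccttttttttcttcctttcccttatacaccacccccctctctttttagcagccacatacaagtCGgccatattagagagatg
The Scn8a window held 30 CG pairs and 68.0% G and C, and 5.9% of all 32851 mouse windows held at least as many pairs. The Scn2a window held 2 pairs and the Scn2b window 1 pair, against a median of 6, and 81.2% and 92.1% of windows held at least as many. Scn2a and Scn8a each have a second annotated start, at chr2:65668436-65668685 and chr15:100936021-100936270, and both of those windows held 9 pairs and 53.2% G and C. The first starts of these genes thus differed in CG pairs and the second did not. The left and right parts of the RE1 element bound by the repressor REST, searched as TTCAGCACC and GGACAGC on both strands, were in none of the 9 windows of these genes, and in 0.301% and 5.28% of all windows. The absence says only that these letters are not in these windows.

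Levels of different genes were compared per kilobase of exon. In cultures with FGF2 the order was Scn3b (30.9 ± 0.18 CPM per kb, SD, n = 2), Scn2a (16.4 ± 0.16), Scn8a (12.4 and 11.6 in its 2 libraries), Scn3a (7.93 ± 0.65), Scn2b (7.34 ± 0.19), Scn1a (2.96 ± 0.33), Scn4b (0.318 ± 0.018), Scn9a (0.111 ± 0.023) and Scn7a (0.0852 ± 0.036). Of neighbours in that order only Scn9a and Scn7a had overlapping libraries, although the lower Scn3a library (7.473) barely exceeded the higher Scn2b library (7.47). Without FGF2 the order was the same, from Scn3b at 38.6 ± 0.67 CPM per kb to Scn7a at 0.115 ± 0.016, and there Scn3a (11.4 ± 0.15) and Scn2b (11.2 ± 0.27) overlapped. The most abundant pore subunit was thus Scn2a in both conditions, and the auxiliary Scn3b stood above every pore subunit. The nearness of Scn3a and Scn2b depends on the length used. Scn3a had 12.46 kb of exon but a longest transcript of 9.56 kb, whereas Scn2b had 4.656 kb by either measure.

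Summed per kilobase, the 6 pore subunits reached 39.06 and 40.01 with FGF2 and 49.49 and 50.41 without, or 79.2% of the level without FGF2. The 3 auxiliary subunits reached 38.53 and 38.52 against 49.99 and 50.99, or 76.3%. Both sums were therefore lower in each FGF2 library, and by like proportions.

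The largest shares of the pore sum, those of Scn2a and Scn8a, were close between the groups. Scn2a made up 41.8% and 41.4% of the sum with FGF2 and 39.9% and 41.0% without. Scn8a made up 31.7% and 29.1% against 29.7% and 29.8%, so that its libraries overlapped. Scn3a, the newborn form, made up 19.1% and 21.0% with FGF2, below the 23.2% and 22.4% without, and Scn1a made up 6.99% and 7.98%, above the 6.59% and 5.98% without. Among the auxiliary subunits, Scn3b made up 80.5% and 79.8% with FGF2 and 76.3% and 76.6% without, and Scn2b 18.7% and 19.4% against 22.7% and 21.5%.

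**Figure D3:**
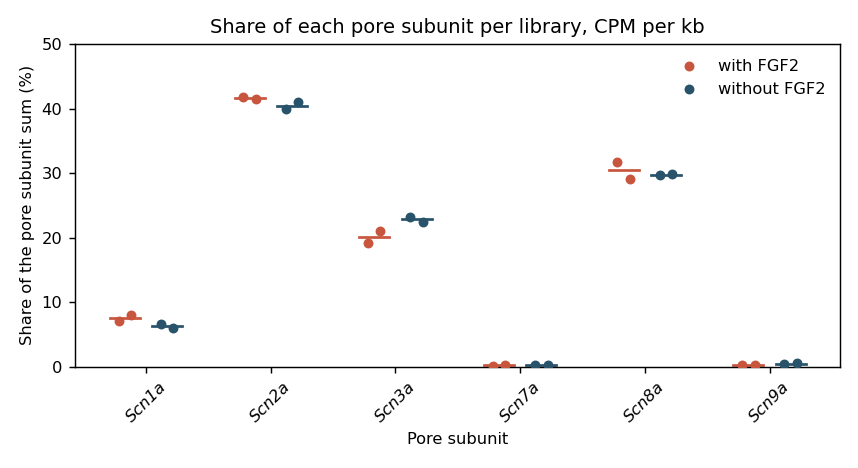
Share of each of the 6 pore subunits, in percent, in their per-kilobase sum, with 1 point per library and a bar at the mean of each group. Scn2a and Scn8a take the most of the sum in every library, Scn3a lies lower in both FGF2 libraries, and Scn1a lies higher in both.

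Ratios within a library do not depend on its scaling, and 4 were tested by exact permutation, where 2 libraries against 2 cannot give a two-sided p below 0.33. The log2 ratio of Scn8a to Scn2a, which rises as cortical axons mature, was -0.45 ± 0.078 with FGF2 and -0.44 ± 0.024 without (SD, n = 2, exact permutation p = 1). That of Scn3a to Scn2a was -1.05 ± 0.10 against -0.83 ± 0.067, and that of Scn1a to Scn2a was -2.48 ± 0.14 against -2.69 ± 0.13. Both of these had groups that did not overlap and the smallest p the design allows (exact permutation p = 0.33, 0.667 adjusted over the 4 ratios). The log2 ratio of Scn2b to Scn4b was 4.44 and 4.61 with FGF2 and 4.46 and 3.54 without (exact permutation p = 0.667, 0.889 adjusted), so that the libraries without FGF2 differed more from each other than those with it.

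Markers of neurons moved with the sodium channel genes. The marker counts below stand beside 19.9% lower and 20.7% higher among all genes tested. Of 12 pan-neuronal markers, 10 were lower and 1 was higher with FGF2, with a median log2 fold change of -0.46 and summed levels of 3723 to 3877 CPM with FGF2 and 5446 to 5471 CPM without. Of 10 excitatory markers 5 were lower and none higher (median -0.39), and of 12 inhibitory markers 11 were lower and none higher (median -0.98). Glial markers moved the other way. Of 10 astrocyte markers 8 were higher and 1 lower, with sums of 12590 to 12720 CPM against 7722 to 7772 CPM. Of 10 oligodendrocyte lineage markers 9 were tested and all 9 were higher, with sums of 1859 to 1868 CPM against 558.2 to 567.2 CPM. The part of these cell types in the sodium channel levels was not tested. Markers of sensory neurons, a known site of Scn9a, summed to at most 2.40 CPM in any library, and none of the 5 was abundant enough to be tested.

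Each sodium channel gene was therefore also set against the mean log2 CPM of the 12 pan-neuronal markers in the same library, which was 0.46 lower with FGF2. Relative to that mean, Scn1a stood at -2.19 and -1.97 with FGF2 and at -2.42 and -2.48 without, a difference of 0.37 on the log2 scale. Scn2a, Scn8a and Scn3b also stood higher relative to the markers in both FGF2 libraries, with differences of 0.16, 0.15 and 0.14. For Scn3a the libraries overlapped and the difference was -0.07. Scn2b stood at -2.05 and -2.00 with FGF2 and at -1.88 and -1.88 without, on the opposite side from Scn3b. The difference of Scn2a ran from 0.10 to 0.22 when 1 library at a time was left out. The low-count genes Scn9a and Scn4b differed by -0.45 and -0.63, and Scn7a overlapped. The difference of Scn9a was -0.26 without FGF2 library 1 and -0.23 without library 2 of the cultures lacking FGF2. That of Scn4b was -0.18 without the latter library and -1.08 without library 1 of those cultures, so the sizes for both genes depend on single libraries. The decreases of Scn2a, Scn8a and Scn3b were smaller than that of the marker mean, and that of Scn2b was larger. Single markers ranged widely, from a log2 fold change of -1.10 for Tubb3 to 0.38 for Nefl, with Map2 at -0.32. The differences from their mean thus depend on which markers are averaged. They are a description and were not tested.

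**Figure D4:**
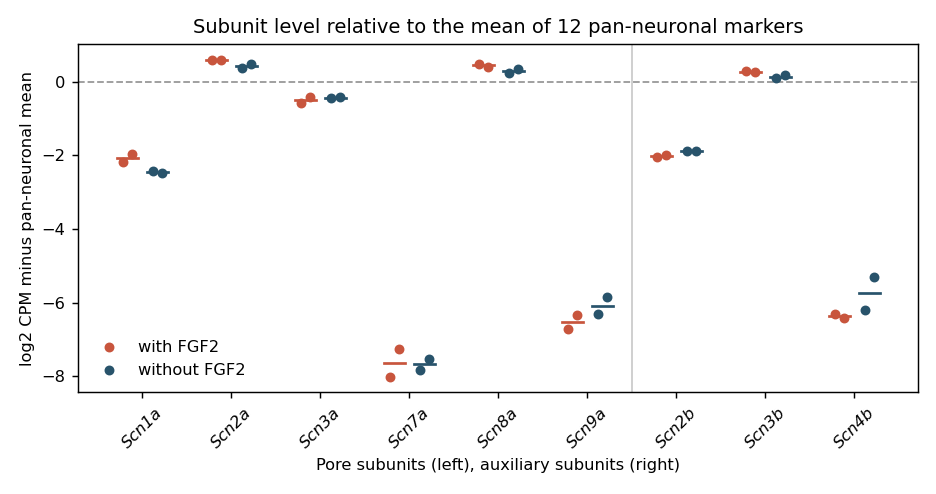
Log2 CPM of each sodium channel gene minus the mean log2 CPM of 12 pan-neuronal markers, with 1 point per library and a bar at the mean of each group. Scn1a, Scn2a, Scn8a and Scn3b lie higher in both FGF2 libraries, Scn2b, Scn9a and Scn4b lie lower, and Scn3a and Scn7a overlap.

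Further sodium channel genes, known from sensory neurons (Scn10a and Scn11a) and skeletal muscle (Scn4a), were close to 0. Scn10a had 0 and 2 counts in the FGF2 libraries and 10 and 12 in those without FGF2, Scn11a had 2 to 7 counts in each library, and Scn4a had 1 count in all. These 3 genes were too low to be tested.

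Genes of the axon initial segment, where the channels cluster, and of related axonal scaffolds were mostly lower as well. Of 10 such genes 8 were lower and 2 were higher, with a median log2 fold change of -0.26. Among all genes tested 19.9% were lower and 20.7% higher, which is also the background for the lists that follow. The 8 lower genes include Ank2 (-0.14), Sptan1 (-0.27) and Sptbn1 (-0.19), which are not particular to the segment. Sptbn4, the spectrin that ties the channel scaffold to actin, was at 25.9 and 23.2 CPM with FGF2 and at 47.6 and 49.3 CPM without (log2 fold change -0.98, SE 0.11, adjusted p = 3.1e-19). L1cam, an adhesion molecule of axons, was at 259.8 and 253.9 CPM against 393.1 and 412.3 CPM (log2 fold change -0.65, SE 0.04, adjusted p = 1.5e-51). Ank3, which encodes the ankyrin that holds sodium channels at the segment, had a log2 fold change of -0.51 (adjusted p = 1.6e-49). The exceptions were Kcnq3, which encodes a potassium channel subunit, at 0.37 (adjusted p = 2.2e-10), and Nfasc, which encodes a cell adhesion protein with neuronal and glial isoforms. Nfasc was at 1056 and 1031 CPM with FGF2 and at 516.7 and 523.2 CPM without (log2 fold change 1.00, adjusted p = 1.1e-177). The gene counts do not separate its isoforms, and the oligodendrocyte lineage markers given above moved the same way.

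Proteins that bind the channels gave 8 lower genes of 10 and none higher, with a median of -0.28. Of all genes tested, 19.9% were lower. Cntn2, an adhesion molecule of axons, was at 25.9 and 29.8 CPM with FGF2 and at 44.1 and 42.6 CPM without (log2 fold change -0.63, SE 0.11, adjusted p = 1.4e-08). Of the intracellular FGF homologous factors, which bind the channel tail and are not secreted, Fgf12 was at -0.49, Fgf11 at -0.33 and Fgf13 at -0.25, and Fgf14 did not pass at -0.27 (adjusted p = 0.072). Fgf11 did not pass with DESeq2 (adjusted p = 0.18). Without library 1 of the cultures lacking FGF2 the list had 5 lower genes.

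The sodium pump restores the gradient that the channels use, and its beta subunits, which bring the pump to the membrane, differed in direction. Atp1b1 was at 460.9 and 520.8 CPM with FGF2 and at 682.3 and 735.1 CPM without (log2 fold change -0.53, adjusted p = 2.5e-45). Atp1b2, found mainly in astrocytes, was higher, at 439.8 and 400.8 CPM against 333.8 and 349.0 CPM (log2 fold change 0.30, adjusted p = 1e-12). Atp1b3 did not pass (log2 fold change -0.14, adjusted p = 0.20), so that of these 3 genes 1 was lower and 1 higher.

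Regulators of sodium channel genes were taken as a last list of 6, of which 4 were lower and 1 was higher (median -0.29). Rest, the repressor that silences neuronal genes, among them Scn2a, in other cells, was counted 486 and 502 times with FGF2 and 359 and 342 times without, with no overlap (log2 fold change 0.67, SE 0.10, adjusted p = 5.2e-11). The splicing factors Rbfox3, Rbfox2 and Rbfox1, which act on channel transcripts, had log2 fold changes of -0.90, -0.57 and -0.46. Rbfox3 is also 1 of the 12 pan-neuronal markers. Rcor1, a partner of REST, did not pass (-0.11, adjusted p = 0.37).

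**Figure D5:**
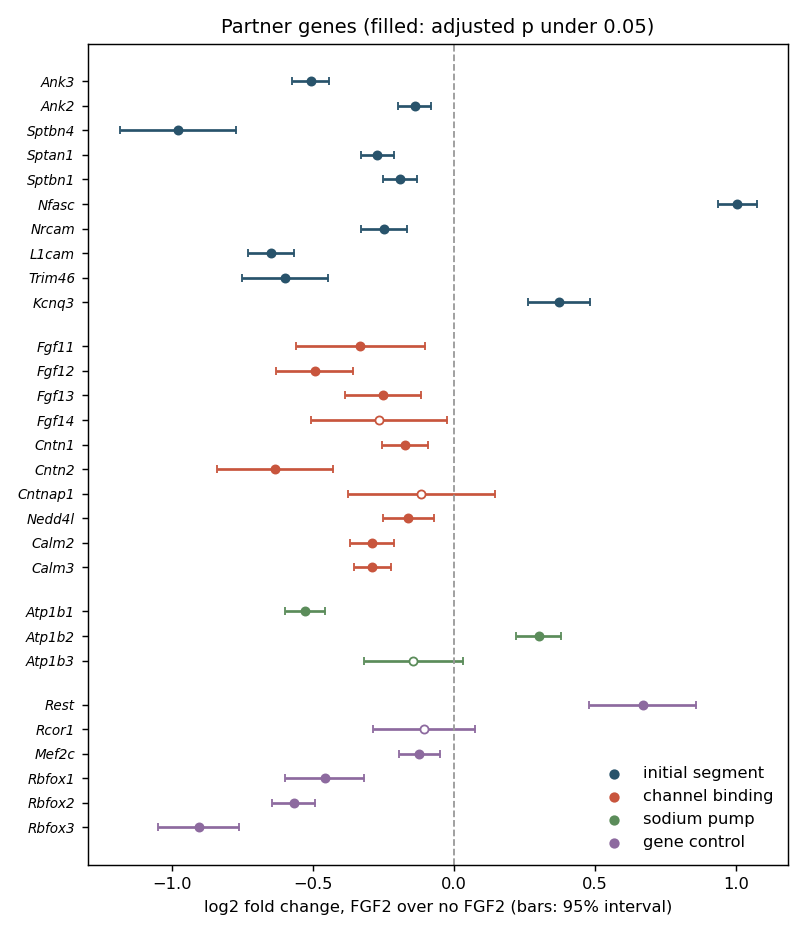
Log2 fold change (FGF2 over no FGF2) with 95% intervals for 29 partner genes in 4 lists, filled where the adjusted p of edgeR was under 0.05. Nfasc, at 1.00, and Rest, at 0.67, lie farthest to the right, and Sptbn4 and Rbfox3 lie farthest to the left.

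The genes most like Scn2a over the 4 libraries, by the root mean square difference of centred log2 CPM among 12644 genes with at least 5 CPM, were Aak1 (0.0065), Rap2a (0.0077) and Dab1 (0.0093). Those most like Scn3b were Cpeb4 (0.0023), Pip4k2b (0.0026) and Tdp1 (0.0049). With only 4 libraries in 2 groups such closeness is common, since 17.6% of the genes lay within 0.1 of Scn2a and 17.2% within 0.1 of Scn3b.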

How the data were processed

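RNA of cultured P0 mouse PFC cells was sequenced in 4 libraries, in pairs of 150 bases. The authors mapped the reads to mm10 with HISAT2 2.1.0, kept those with a mapping quality of at least 20 and counted them per gene with HTSeq 0.11.2, and they deposited raw counts. The annotation release and strand setting are not given in the sources used here. Read pairs in no feature (43.2% to 45.9%) and ambiguous ones (1.47% to 1.77%) were left out of totals and tests. Of the genes listed, 55240 matched GENCODE M21, which gave symbols, coordinates and exon lengths.

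The 4 libraries were fitted with edgeR 4.0.16 (R 4.3.3, TMM, its expression filter, robust quasi-likelihood test), with Benjamini-Hochberg adjustment over 17144 genes. SEs and 95% intervals follow from the test statistic. DESeq2 1.42.0 and limma 3.58.1 (voom), other scalings and filters, GC and length offsets, a replicate block and leaving out each library were alternatives. BLAST 2.17.0 gave the similar stretches. The fit was tested on simulated data. CPM means counts scaled to a common library total after TMM, and log2 levels used a prior count of 1. Replicates differed by more than counting noise (chi-square per degree of freedom 2.28 with FGF2 and 1.76 without), so each was counted. Among partner genes, the 3 with the largest change at a mean of at least 5 CPM were named in each list, besides genes needed to describe it. Some genes of these lists and some sequences are not reported here, and counts of the lists leave those genes out. The sodium channel genes and all lists were chosen with earlier results of these data known.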

Additional observations from a re-analysis of the deposited data

How the results depend on the processing

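The decreases of Scn2a, Scn3a, Scn8a, Scn2b and Scn3b kept their direction and passed the threshold under every alternative run. When 1 library at a time was left out, 5 or 6 of the 9 genes were lower and 0 higher, and the median log2 fold change of the genes tested ran from -0.47 to -0.40. Of all genes, DESeq2 called 2068 higher and 1931 lower, against 3541 and 3408 with edgeR. Deviations of same-numbered libraries correlated at 0.002 over 16814 genes. With so few libraries this cannot tell whether same-numbered libraries were prepared together. With the replicate block 6 of the 9 genes were lower, and of all genes 3476 were higher and 3338 lower. With GC and length offsets as well the counts were 6, 3534 and 3278. The block by itself changed no call of a named gene. Among genes named, signs turned for Scn1a (-0.20 to 0.021 with 1 library left out, the highest without FGF2 library 1), Cntnap1 (-0.27 to 0.046, the highest without library 1 of the cultures lacking FGF2) and Rcor1 (-0.24 to 0.0023, the highest without FGF2 library 1), none of which passed. Scn4b lost its call with DESeq2 and without library 2 of the cultures lacking FGF2, and Fgf11 with DESeq2 and without library 1. Cntn1 and Nedd4l lost theirs without that same library (adjusted p = 0.053 and 0.13, edgeR), and Mef2c lost its call without any of 3 libraries (adjusted p of 0.052 to 0.067). Scn9a passed where each library had at least 10 counts, and Fgf14 with GC and length offsets (-0.41) and without FGF2 library 2 (-0.36). With the longest transcript as length, Scn2a made up 43.0% of the pore sum with FGF2 and 41.9% without, and in cultures without FGF2 Scn3a made up 21.6% and Scn7a 0.166%. With 1 library left out, 5 to 9 of the 10 channel-binding genes were lower, and the difference between groups in the log2 ratio of Scn8a to Scn2a ran from -0.064 to 0.046. Relative to the pan-neuronal markers, that of Scn3a ran from -0.15 to 0.017 and that of Scn7a from -0.33 to 0.42, and Scn7a was at -0.018 with a prior count of 0.1. The causes were not tested. Depth limited Scn4b, Scn7a and Scn9a, with at most 51 counts in any library.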
